A study of Mus musculus with 100 samples.

Results

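The injury response of the STR/ort knee 2-weeks after rupture of the anterior cruciate ligament (ACL) was examined in 10 of the 100 RNA-seq libraries of the study. These were the 5 injured right knees and the 5 uninjured contralateral knees of the same 5 STR/ort animals, chosen by the strain, joint and time written in their labels and by no measured value. All 17310 genes were compared between these joints, in a fit that took the spread from the 30 libraries of 2-weeks of all strains. The whole study followed mice of the strains STR/ort, MRL/MpJ and C57BL/6 before and at several times after injury, in 21 groups. Mice were 10 weeks of age at injury, and the right knee received a single compressive load on the tibia of between 10 and 12 N under anesthesia, with buprenorphine for pain relief. STR/ort is an inbred strain that the labels describe as highly susceptible to post-traumatic osteoarthritis, whereas MRL/MpJ is known for its healing capacity and C57BL/6 is a common laboratory strain. The controls were no separate uninjured animals: each contralateral joint came from an animal that had been injured, loaded on the other leg and given the analgesic. The C57BL/6 and MRL/MpJ joints at 2-weeks (5 injured and 5 uninjured joints of each strain) and the 9 STR/ort joints at 1-week (5 injured and 4 uninjured) were made by the same procedure and served for values side by side.

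The ACL holds the tibia in place under the femur, and its rupture leaves the knee unstable. In an unstable knee, fibroblasts of the synovium and capsule multiply and lay down collagen, cartilage at the joint margin grows into osteophytes, and proteases such as the stromelysins, collagenases and aggrecanases cut cartilage matrix. Hyaluronan, lubricin and the secreted protein TSG-6 belong to the synovial response, and interleukin-11, interleukin-33 and chemokines are among the signals that stromal cells release after tissue damage.

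Each library held between 11012806 and 13104419 counted reads in the injured joints and between 8778124 and 11550250 in the uninjured joints. Levels are given as CPM, counts relative to the scaled size of the library, as mean ± SD over 5 joints. The joints were cut at the edges of the long bones, so that cartilage, synovium, meniscus, ligament, bone, marrow and traces of muscle were measured together, and in such bulk RNA fewer cells of a type and less RNA per cell cannot be told apart. Defining transcripts of the joint were present in every library: Col2a1 (type II collagen of cartilage) lay between 1496.8 and 3934.5 CPM, Prg4 (lubricin) between 1035.2 and 2632.0 CPM, Ibsp (bone sialoprotein) between 583.9 and 911.3 CPM and Tnmd (tenomodulin of tendon) between 17.9 and 81.7 CPM, while Matn1 (matrilin 1) was low at 0.902 to 3.70 CPM. Among the marker lists of other tissues and cells, the fast-fibre list of muscle had the highest sum, at 70238.5 to 117724.6 CPM. Such sums depend on the genes listed and do not measure the amount of a tissue. In a principal component analysis the first component, with 29.5% of the variance, separated the injured from the uninjured joints. Injured joint 3 lay nearest to the uninjured side and uninjured joint 4 was the uninjured joint nearest to the injured side.

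At 2-weeks post-injury the STR/ort transcriptome had moved mostly upward: 752 genes were higher and 55 lower in the injured than in the contralateral joints, at an adjusted p under 0.05 in edgeR's quasi-likelihood test and a fold change over 1.5. These were 4.34% and 0.318% of the genes tested, and 4.66% together. Of the 752 higher genes, 325 rose by more than 1 on the log2 scale and 45 by more than 2, with a median of 0.92. In 640 of the 752 the 5 injured joints all lay above the 5 uninjured joints, an ordering that 7.81% of all genes showed, and 719 were higher in the injured joint of all 5 animals (15.2% of all genes). The 55 lower genes had a median log2 fold change of -0.75, 12 of them fell by more than 1 on that scale, and only 21 were below the uninjured joints without overlap (1.76% of all genes). Taking the animal as a block gave 838 genes (761 higher and 77 lower), of which 785 were shared with the 807. The count was 833 without animal 4 and 649 without animal 5, and it lay between 715 and 886 when any single library was left out.

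**Figure D1:**
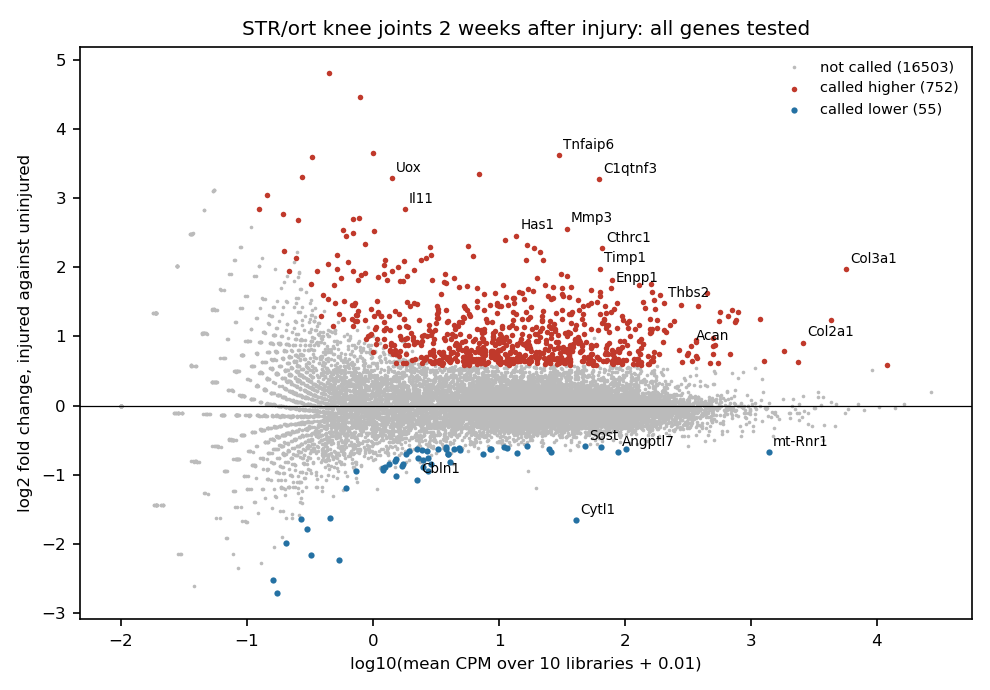
Log2 fold change of injured against uninjured STR/ort joints at 2-weeks (vertical axis) against the log10 of the mean level in CPM (horizontal axis) for all 17310 genes, 1 point per gene, with the genes called higher and lower in colour. The 752 higher genes fill the upper side over the whole range of levels, and the 55 lower genes are few and mostly close to the 1.5-fold line.

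The gene with the smallest adjusted p, in the fit without the animal as a block, was Cthrc1, a secreted glycoprotein of activated fibroblasts. It lies on chr15:39076932-39087121 (GRCm38.p6, as all positions here). Its level in the injured joints of animals 1 to 5 was 130.6, 118.3, 90.4, 101.6 and 107.4 CPM, against 20, 23, 22.5, 29.6 and 18 CPM in their uninjured joints. Every injured joint thus exceeded every uninjured one by a wide margin. The fold change was 4.85 (log2 2.28 ± 0.15 SE, n = 5 joints per group, adjusted p = 1.49e-11, edgeR). C1qtnf3, a C1q and TNF related protein also known as cartducin (chr15:10952119-10980162), stood at 125.5, 145.7, 93.8, 100.1 and 95.6 CPM in injured joints and at 13.3, 11.9, 9.27, 15.1 and 8.03 CPM in uninjured joints. The groups were far apart, and the mean rose from 11.5 ± 2.89 to 112.2 ± 22.7 CPM (log2 3.28 ± 0.26 SE, adjusted p = 1.86e-10). Megf6, a secreted protein with epidermal growth factor repeats, rose from 5.55 ± 0.97 to 27.9 ± 6.39 CPM (4.99-fold).

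Tnfaip6 encodes TSG-6, which binds hyaluronan and is induced by inflammatory cytokines in synovial cells and chondrocytes (chr2:52038113-52056681). The injured joints held 51.1, 51.9, 36.3, 46.2 and 90.5 CPM, and the uninjured joints 7.16, 3.86, 4.15, 3.95 and 3.70 CPM. The injured joint of animal 5 was the highest of all and the uninjured joint of animal 1 the highest control, with no overlap between the groups. Tnfaip6 rose 12.3-fold (log2 3.62 ± 0.25 SE, adjusted p = 5.16e-11). Mmp3, stromelysin 1, which cuts proteoglycans and activates other matrix metalloproteinases (chr9:7445822-7455975), stood at 44.2, 41.2, 36.2, 66.7 and 106.7 CPM in the injured joints and at 5.99, 7.99, 4.91, 26.5 and 3.16 CPM in the uninjured joints. The uninjured joint of animal 4 was well above the other controls, though still below every injured joint. The fitted change was 5.88-fold (log2 2.56 ± 0.37 SE, adjusted p = 5.34e-06), and it was 3.43 on the log2 scale without that joint. Il11, the interleukin-6 family cytokine interleukin-11 (chr7:4772373-4782907), was at 2.41, 2.54, 3.12, 3.42 and 4.15 CPM in the injured joints and at 0.822, 0.470, 0.109, 0.420 and 0.361 CPM in the uninjured joints. It was low but separate in all 5 animals, with a 7.15-fold rise (log2 2.84 ± 0.33 SE, adjusted p = 1.52e-07).

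The promoters of Mmp3, Tnfaip6 and Il11 are shown because these genes were among the largest responders and each has the letters bound by AP-1, the dimer of Fos and Jun proteins, near a start site. The sequences are RefSeq's for GRCm38.p6, 250 bases before to 50 bases after the start site, 5′ to 3′ on the strand of the gene, with the AP-1 letters in capitals. The Mmp3 window is chr9:7445572-7445871 on the plus strand, the Tnfaip6 window is chr2:52037863-52038162 on the plus strand, and the Il11 window is chr7:4778092-4778391 on the minus strand, the second of 2 start sites; the window of the other Il11 start held no match.
Mmp3: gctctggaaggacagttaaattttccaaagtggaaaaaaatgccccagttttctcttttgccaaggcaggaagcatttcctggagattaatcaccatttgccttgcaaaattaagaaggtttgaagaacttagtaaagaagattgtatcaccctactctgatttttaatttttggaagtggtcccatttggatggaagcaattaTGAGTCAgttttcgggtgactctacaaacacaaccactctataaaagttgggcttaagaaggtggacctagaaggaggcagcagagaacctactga
Tnfaip6: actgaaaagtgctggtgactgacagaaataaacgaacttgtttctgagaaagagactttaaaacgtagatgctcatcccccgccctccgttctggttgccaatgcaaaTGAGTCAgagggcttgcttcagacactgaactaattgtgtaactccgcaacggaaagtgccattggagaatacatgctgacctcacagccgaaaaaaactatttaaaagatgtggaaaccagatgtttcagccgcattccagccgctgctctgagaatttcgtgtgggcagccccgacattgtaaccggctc
Il11: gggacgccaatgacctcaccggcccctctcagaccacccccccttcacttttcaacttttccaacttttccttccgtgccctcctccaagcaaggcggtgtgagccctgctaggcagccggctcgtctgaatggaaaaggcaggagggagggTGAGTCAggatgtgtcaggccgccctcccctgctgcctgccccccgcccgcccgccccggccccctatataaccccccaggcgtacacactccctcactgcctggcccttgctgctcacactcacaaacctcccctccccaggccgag

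The AP-1 letters began 46 bases before the start site in Mmp3, 142 bases before it in Tnfaip6 and 98 bases before it in Il11. TGANTCA, searched on both strands, occurred in a promoter window of 58 of the 525 higher genes with a RefSeq window (11%), of 0 of the 37 lower genes, and of 6.93% of the 12794 tested genes with a window. The share for TATAAA was 13.5% of the higher and 18.9% of the lower genes against 10.1% of all. For GGAATG (TEAD) it was 21% and 16.2% against 15%, for CCAAT 38.7% and 51.4% against 42.1% and for TGTGGT (RUNX) 13.9% and 13.5% against 16%. These shares describe letters in a window and were not tested.

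Fibre-forming collagens and their partners made up the most complete group. Of 14 fibrous collagens measured, 13 were higher and none lower, with a median log2 fold change of 1.33 against -0.008 over all genes, and in all 14 the injured joints lay above the uninjured joints without overlap. Col3a1, the collagen of early repair tissue, stood at 9867.9, 9653.3, 6868.1, 8382.2 and 10298.2 CPM in injured joints against 2486.9, 2489.4, 2025.0, 2928.7 and 1603.2 CPM. Injured joint 3 was the lowest of its group and uninjured joint 4 the highest of the controls, and a wide gap still separated the groups. The change was 3.92-fold (log2 1.97 ± 0.19 SE, adjusted p = 6.33e-09). The 3 chains of type V collagen, which sets the width of collagen fibrils, rose together: Col5a1 by 2.47-fold, Col5a2 by 2.39-fold and Col5a3 by 2.88-fold. Col8a1, a short-chain collagen, rose 2.82-fold, Col16a1 2.15-fold and Col14a1 3.37-fold. Summed over the list, the level was 34422.2 to 46939.3 CPM in injured joints and 19555.8 to 23905.5 CPM in uninjured joints.

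Enzymes that modify and crosslink collagen followed, with 15 of 24 higher and 0 lower (median log2 fold change 0.73). P4ha3, a prolyl 4-hydroxylase subunit, rose from 6.47 ± 2.20 to 31.8 ± 4.57 CPM (4.87-fold, adjusted p = 3.42e-09). The lysyl oxidases, which crosslink collagen and elastin, rose by 2.19-fold (Lox), 2.08-fold (Loxl1) and 2.37-fold (Loxl2). The collagen chaperone Fkbp10 rose 1.92-fold and Bmp1, which trims procollagen, 1.70-fold. Pxdn, a peroxidase that crosslinks basement membrane collagen, rose 2.71-fold. Of 16 basement membrane genes, 8 were higher and 0 lower, among them Lamb1 (2.57-fold), Col18a1 (2.36-fold) and Lama4 (1.75-fold); 6 of them were higher without animal 5.

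Matricellular proteins and markers of activated fibroblasts rose in 17 of 27 genes and fell in none (median 1.21). Thbs2, thrombospondin 2, which governs collagen assembly, was at 323.7, 329.8, 243.1, 310.9 and 288.1 CPM in injured joints and at 101.2, 103.6, 102.8, 130.6 and 98.7 CPM in uninjured joints. The controls were tight apart from uninjured joint 4, and even the lowest injured joint was far above them. Thbs2 rose 2.79-fold (log2 1.48 ± 0.11 SE, adjusted p = 7.64e-11). Postn, periostin, rose from 451.9 ± 21.3 to 1042.5 ± 134.7 CPM (2.32-fold), Fbn2, a fibrillin of growing tissue, 4.32-fold, Pdpn, podoplanin of the synovial lining, 3.16-fold and Tgfbi, a matrix protein induced by TGF-beta, 2.08-fold.

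The small leucine-rich proteoglycans, which decorate collagen fibrils, were higher in 8 of 12 genes and lower in 0. Bgn (biglycan) rose from 457.5 ± 36.4 to 1074.9 ± 114.3 CPM, Aspn (asporin) 2.34-fold, Lum (lumican) 2.33-fold, Kera (keratocan) 2.16-fold, Fmod (fibromodulin) 1.83-fold and Ogn (osteoglycin) 1.69-fold. The tendon and ligament list held 8 higher genes of 12, including the tendon transcription factor Scx (6.10 ± 0.919 to 11.9 ± 0.561 CPM), Tnmd (2.72-fold) and Thbs4 (1.94-fold); Col14a1 is counted in this list too. No leave-one-library-out count of these 2 lists fell below 7.

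**Figure D2:**
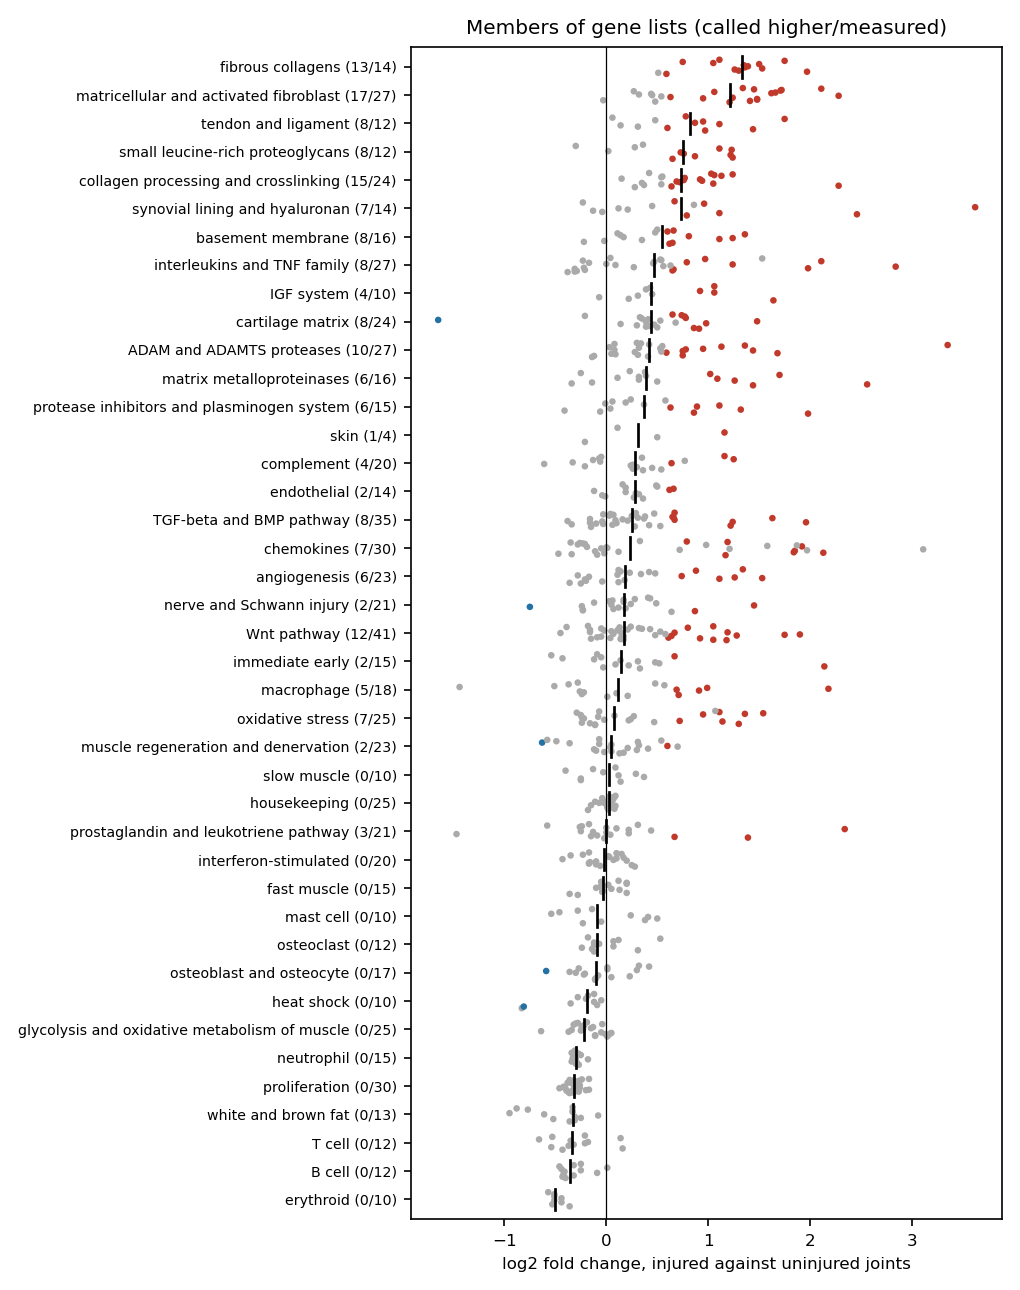
Log2 fold change of injured against uninjured STR/ort joints at 2-weeks (horizontal axis) of members of the gene lists (rows), 1 point per gene, coloured where called higher or lower. Shown are members whose listed name matched a gene as written. The black bar at the list's median and the count called higher in the row's label are those of all measured members. The collagen, crosslinking, matricellular and proteoglycan lists lie mostly to the right (13 of 14 fibrous collagens called higher), while the muscle fibre, erythroid, neutrophil and fat lists hold no gene called higher.

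Cartilage genes moved less uniformly. Of 24 cartilage matrix genes, 8 were higher and 1 lower, with a median of 0.44. Col2a1 stood at 3744.4, 3092.0, 2664.3, 3353.2 and 3934.5 CPM in injured joints against 1496.8, 1721.0, 1907.8, 2206.8 and 1664.0 CPM in uninjured joints. The groups did not overlap, and the rise was 1.87-fold (log2 0.91 ± 0.17 SE, adjusted p = 0.00025). Acan, aggrecan, rose 1.81-fold (239.9 ± 37.1 to 433.8 ± 67.1 CPM), Comp, cartilage oligomeric matrix protein, 1.97-fold, Matn4 2.79-fold, and the transcription factors Sox9 and Sox5, which drive chondrocyte identity, 1.67-fold and 1.71-fold. Trps1, another chondrocyte regulator, rose 1.57-fold and fell under the 1.5-fold limit without injured joint 5 (log2 0.57). Hapln1, which links aggrecan to hyaluronan, was at 164.8 ± 25.8 and 237.5 ± 34.1 CPM and stayed under the fold limit (log2 0.53, adjusted p = 0.0464), while it passed without injured joint 3 or without uninjured joint 4 (log2 0.60 and 0.62). Matn1 and Matn3 did not pass the test (adjusted p = 0.101 and 0.294), though Matn1 did without uninjured joint 4 (log2 0.97, adjusted p = 0.0228).

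The lower cartilage gene was Cytl1, a secreted cytokine-like protein made by chondrocytes (chr5:37735519-37739820). Its level in injured joints 1 to 5 was 17.4, 15.5, 16.7, 18.5 and 30.3 CPM and in uninjured joints 48.9, 41.8, 64.9, 65.0 and 88.4 CPM. All injured joints lay below all uninjured joints, and animal 5 was the highest in both groups. The level fell to a fold of 0.319 (log2 -1.65 ± 0.17 SE, adjusted p = 2.38e-08), in the opposite direction to Col2a1 and Acan.

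**Figure D3:**
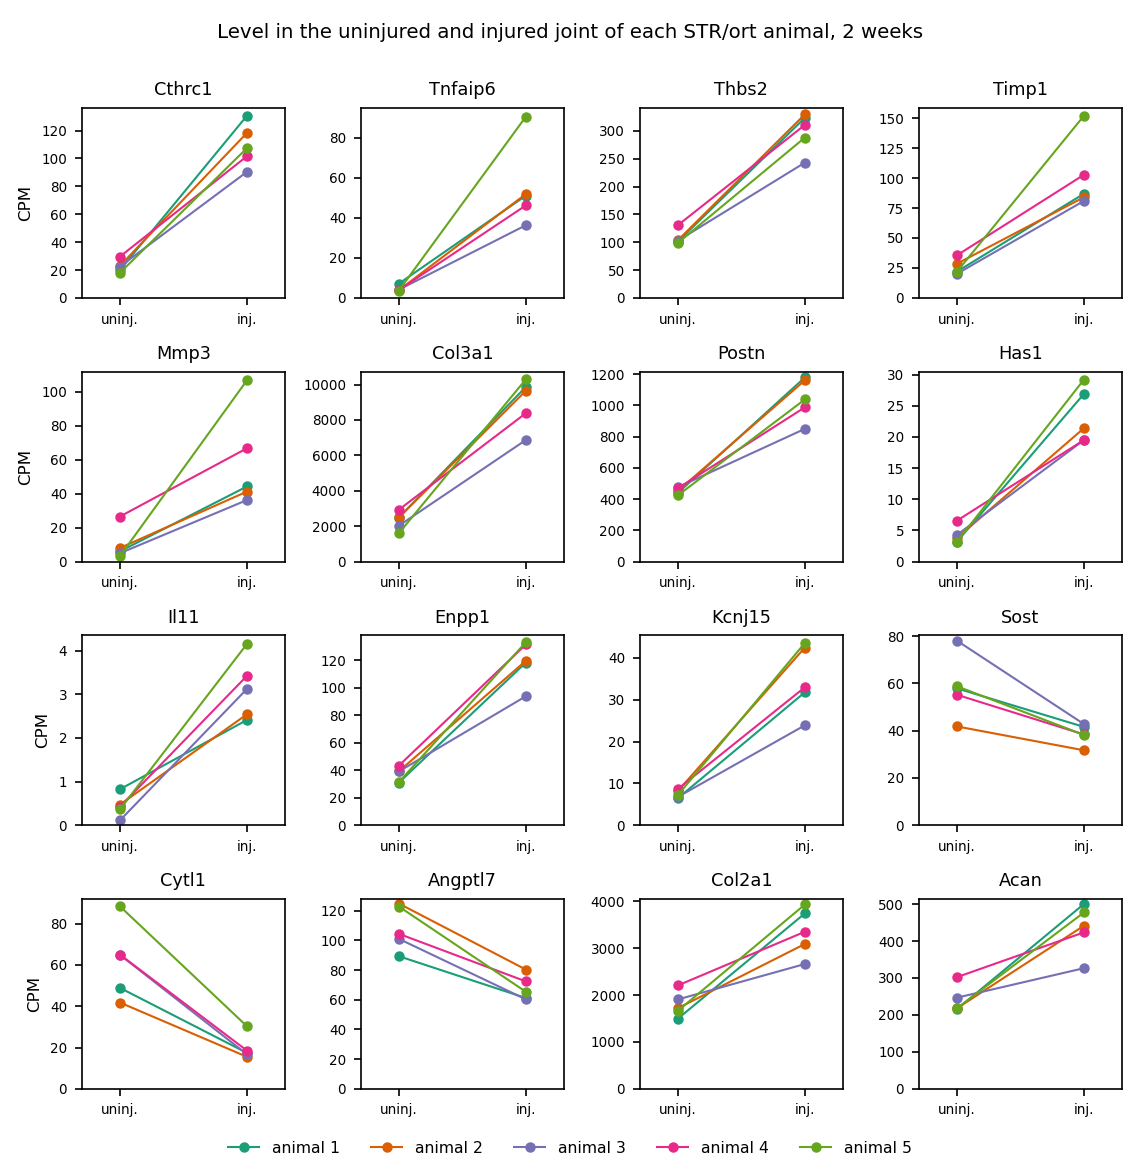
Level in CPM (vertical axes, linear and starting at 0) of 16 genes in the uninjured and injured STR/ort joints at 2-weeks, with a line joining both joints of each of the 5 animals. The lines run upward in all 5 animals for the higher genes such as Cthrc1 and Tnfaip6 and downward in all 5 for Cytl1, and the uninjured joint of animal 4 starts high for Mmp3 (26.5 CPM).

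Genes of the synovial lining and of hyaluronan metabolism were higher in 7 of 14 and lower in 0, a count that no single library changed. Has1, hyaluronan synthase 1, was at 26.9, 21.4, 19.5, 19.5 and 29.2 CPM in injured joints and at 3.17, 3.76, 4.26, 6.55 and 3.16 CPM in uninjured joints. The groups were wide apart (5.51-fold, log2 2.46 ± 0.23 SE, adjusted p = 2.56e-09). Has2 rose 2.16-fold with its highest level in injured joint 5 (16.0 CPM), Ugdh, which makes the precursor of hyaluronan, 1.59-fold, Vcan (versican) 1.94-fold and Cemip, which breaks hyaluronan down, 1.81-fold. Prg4 rose 1.72-fold (1351.5 ± 450.6 to 2322.5 ± 251.9 CPM, adjusted p = 0.00162); uninjured joint 4, at 2100.3 CPM, overlapped the injured joints, and without it the log2 fold change went from 0.79 to 1.01.

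Of 17 osteoblast and osteocyte genes 0 were higher and 1 was lower, and of 12 osteoclast genes 0 were called (2 at an unadjusted p under 0.05, and 0 by DESeq2), with medians of -0.10 and -0.09. In lists of this size these counts are close to the 4.66% called over all genes. The lower gene was Sost, the Wnt inhibitor sclerostin of osteocytes, at 41.6, 31.7, 42.8, 38.4 and 38.2 CPM in injured joints and 57.9, 41.8, 78.1, 55.2 and 58.8 CPM in uninjured joints. The injured joint was below the uninjured joint in every animal, although the groups overlapped. Its fold of 0.665 lay at the limit (log2 -0.59 ± 0.14 SE, adjusted p = 0.00461), and with the animal as a block it was -0.58 and no longer past 1.5-fold, as it was without injured joint 2 (-0.52), injured joint 5 (-0.58), uninjured joint 3 (-0.46) or uninjured joint 5 (-0.58). Mepe, another osteocyte product, was at 58.5 ± 5.84 against 75.1 ± 10.4 CPM (log2 -0.36, adjusted p = 0.0413), Ctsk, cathepsin K of osteoclasts, at 355.8 ± 69.5 against 288.9 ± 57.2 CPM (adjusted p = 0.15), and Tnfsf11, the osteoclast-inducing ligand RANKL, at 5.58 ± 1.27 against 3.85 ± 0.845 CPM (log2 0.53, adjusted p = 0.0466). Tnfsf11 passed the fold limit without injured joint 1 (0.60) or uninjured joint 4 (0.62).

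Matrix-degrading proteases rose in part. Of 16 matrix metalloproteinases, 6 were higher and 0 lower: Mmp3, Mmp2 (2.72-fold), Mmp14 (2.13-fold), Mmp19 (3.26-fold) and Mmp23 (2.02-fold) were among them. Mmp14, the membrane-bound collagenase that activates Mmp2, was at 306.0, 288.1, 229.9, 267.7 and 292.8 CPM in injured joints and at 121.2, 131.9, 125.4, 147.0 and 126.8 CPM in uninjured joints, with no overlap (adjusted p = 2.21e-10). Mmp9, abundant in neutrophils and osteoclasts, did not pass the test at 500.4 ± 49.5 against 554.9 ± 49.3 CPM (adjusted p = 0.386). Of 27 ADAM and ADAMTS proteases, 10 were higher and 0 lower. Adamts16 was at 13.5, 12.0, 7.37, 14.3 and 15.6 CPM in injured joints against 1.41, 0.846, 0.546, 2.77 and 0.361 CPM, a 10.2-fold rise without overlap (adjusted p = 1.66e-08). Without uninjured joint 4, at 2.77 CPM, it was 16.2-fold. Adamts4, an aggrecanase, rose 2.71-fold, Adamts15 2.58-fold, Adamts12 2.18-fold and Adam23, an adhesion protein of the family without protease activity, 3.21-fold.

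Inhibitors rose beside the proteases, with 6 of 15 protease inhibitors and members of the plasminogen system higher and 0 lower. Timp1, the inducible inhibitor of metalloproteinases, stood at 86.9, 84.0, 80.9, 102.7 and 151.9 CPM in injured joints and at 21.9, 28.5, 20.1, 35.5 and 21.8 CPM in uninjured joints. Injured joint 5 was the highest, and the groups did not overlap (3.95-fold, log2 1.98 ± 0.15 SE, adjusted p = 1.83e-10). Timp2 rose 1.81-fold. Plat, tissue plasminogen activator, rose 2.16-fold.

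Signalling genes rose in part. Of 41 Wnt pathway genes, 12 were higher and 0 lower, led by secreted antagonists and receptors: Sfrp1 (10.5 ± 2.29 to 35.6 ± 8.27 CPM, 3.37-fold), Sfrp2 (3.73-fold), Dkk3 (2.29-fold), the receptor Fzd1 (2.27-fold) and the receptor tyrosine kinase Ror2 (2.43-fold). Ryk, another Wnt receptor, was separate between the groups and under the fold limit (1.39-fold, adjusted p = 4.39e-08). Of 35 TGF-beta and BMP pathway genes, 8 were higher and 0 lower, among them Inhba, the activin A subunit (2.33-fold), the latent TGF-beta binding proteins Ltbp1 (1.58-fold) and Ltbp3 (1.57-fold), Fstl1 (3.09-fold) and Gdf5, a joint morphogen, which went from 0.857 ± 0.245 to 3.35 ± 0.555 CPM (3.88-fold). Of 10 genes of the IGF system, 4 were higher and 0 lower. Igf1, insulin-like growth factor 1, was at 267.8, 263.7, 175.5, 212.1 and 320.1 CPM in injured joints and at 85.4, 93.4, 73.9, 76.7 and 70.9 CPM in uninjured joints, again with no overlap (3.11-fold, adjusted p = 1.07e-09). Its binding proteins Igfbp3 and Igfbp7 rose 2.08-fold each and Igfbp4 1.90-fold.

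Cytokine genes rose selectively. Of 27 interleukin and TNF family genes, 8 were higher and 0 lower, and 4 were higher without injured joint 5. Beside Il11, these included Il33, an alarmin of stromal cells (2.36-fold, injured joint 5 highest at 27.5 CPM), Osmr, the receptor of oncostatin M (1.73-fold), and Il1r1, the interleukin-1 receptor (1.57-fold, or log2 0.55 and under the limit without injured joint 5). Of 30 chemokine genes, 7 were higher and 0 lower, while the list's median was 0.23 and its summed level differed by -0.02 on the log2 scale between the joints of an animal (SD 0.11, 3 of 5 animals higher). Cxcl14 was at 95.2, 118.3, 99.3, 149.3 and 262.7 CPM in injured joints and 56.7, 83.5, 53.6, 66.4 and 57.4 CPM in uninjured joints. All injured joints were above the controls, with injured joint 5 the farthest (2.29-fold, adjusted p = 2.70e-05). The monocyte attractants Ccl8 (3.59-fold), Ccl7 (4.37-fold) and Ccl12 (3.61-fold) and Cxcl16 (1.73-fold) were called as well, each from a low level. Ccl7 was higher in 4 of 5 animals and overlapped between the groups, with injured joint 5 far above the others at 10.7 CPM, and without that joint it was 2.71-fold (adjusted p = 0.00521). Cxcl1, at 1.36 ± 1.20 against 0.347 ± 0.0896 CPM, was highest in injured joint 5 (3.44 CPM). Without that joint its log2 fold change went from 1.92 to 1.25 and the call was kept (adjusted p = 0.0457), and without both joints of animal 5 it was 1.26 and the call was lost (adjusted p = 0.088).

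Of the 21 prostaglandin and leukotriene genes, 3 were higher (14.3%, against 4.34% of all genes) and 0 lower. The list's median log2 fold change was 0, and 4 members were lower at an unadjusted p under 0.05. Its summed level was lower in the injured joint of all 5 animals (mean log2 difference -0.10, SD 0.08). The higher genes were Ptgs2, cyclooxygenase 2 (3.07 ± 0.979 to 8.04 ± 2.23 CPM, 2.62-fold), Pla2g2e, a secreted phospholipase (5.08-fold), and Ptges, prostaglandin E synthase (1.59-fold). Ptges was under the fold limit without injured joint 5 (log2 0.57). Alox15 was lower by the test and just under the fold limit (fold 0.667, log2 -0.58, adjusted p = 0.00758), and it passed the limit without injured joint 3, 4 or 5 (-0.61, -0.59 and -0.68) and without uninjured joint 1, 2 or 3 (-0.71, -0.59 and -0.60). Alox15 was also called lower with RLE scaling, without TMM scaling, with DESeq2 and with filterByExpr. Of 20 complement genes, 4 were higher: C3ar1, the receptor of C3a (2.38-fold), Masp1 (2.23-fold), C1s1 (1.62-fold) and Cfb (1.56-fold), the last of which was under the limit without injured joint 4 (0.53), uninjured joint 1 (0.57) or uninjured joint 5 (0.58). None of the 20 interferon-stimulated genes was called in edgeR's test at both limits, nor by DESeq2, and 1 of them, Rsad2, had an unadjusted and an adjusted p under 0.05 (76.5 ± 13.8 against 103.3 ± 26.8 CPM, adjusted p = 0.0493).

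Among 23 angiogenesis genes, 6 were higher (26.1%, against 4.34% of all genes) and 0 lower. The median log2 fold change of the 23 was 0.18, and 3 were lower at an unadjusted p under 0.05. Among 14 endothelial markers, 2 were higher (14.3%, near the 4.34% of all genes in a list of this size) and 0 lower. The endothelial count was 1 to 3 as single libraries were left out. Angptl4, a secreted regulator of lipid uptake and vessel growth, rose 2.88-fold, Angptl2 2.15-fold and Apln, the peptide apelin, 2.39-fold. The endothelial genes called were Plvap (1.58-fold) and Emcn (1.54-fold, or log2 0.56 and under the limit without uninjured joint 1), while Pecam1 was separate between the groups at 1.29-fold. The summed endothelial level was 836.5 to 900.0 CPM in injured and 722.6 to 772.5 CPM in uninjured joints, without overlap, none of the markers was at 0 in all libraries, and the part of endothelial cells in the result was not tested. Of 25 oxidative stress genes, 7 were higher and 0 lower, a count that no single library changed, while 7 others were lower at an unadjusted p under 0.05 and the list's median log2 fold change was 0.08. The higher genes included Nox4, a source of hydrogen peroxide (2.91-fold), Sod3, extracellular superoxide dismutase (2.46-fold), Gpx7 (2.21-fold) and the metallothionein Mt1 (1.93-fold). Of 21 nerve and Schwann cell genes, 2 were higher (9.52%, near the 4.34% of all genes in a list of this size, and 1 by DESeq2 or without animal 5), one of them Bdnf (1.83-fold), and 1 was lower, the neurotrophin receptor Ntrk3 (log2 -0.75, adjusted p = 0.0152), which lost the call without injured joint 3 (adjusted p = 0.0538) or uninjured joint 5 (0.0686).

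The remaining large responses lay outside the lists. Enpp1, which makes pyrophosphate, the inhibitor of mineral deposition, was at 118.3, 119.6, 93.8, 131.5 and 133.1 CPM in injured joints and at 31.0, 39.2, 39.1, 43.3 and 31.4 CPM in uninjured joints. The groups did not overlap (3.25-fold, log2 1.70 ± 0.13 SE, adjusted p = 1.83e-10). Kcnj15, a potassium channel subunit, rose 4.67-fold, Smoc1, a BMP modulator, 3.01-fold and C1qtnf6 2.39-fold. Uox, urate oxidase, rose from 0.251 ± 0.25 to 2.57 ± 0.62 CPM, a log2 fold change of 3.29, or 4.02 without uninjured joint 2.

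Among the lower genes with the smallest adjusted p, Angptl7, an angiopoietin-like secreted protein, was at 61.2, 80.4, 60.3, 72.4 and 65.4 CPM in injured joints and at 89.4, 124.9, 101.1, 104.5 and 122.9 CPM in uninjured joints. The groups were separate, at a fold of 0.628 (log2 -0.67 ± 0.14 SE, adjusted p = 0.000711). Trim63, the muscle ubiquitin ligase MuRF1 of muscle wasting, fell to a fold of 0.648 (123.7 ± 16.4 to 79.7 ± 10.4 CPM) and passed the fold limit neither without injured joint 1 (-0.56) nor without uninjured joint 1 (-0.55). Cbln1, a secreted C1q family protein, fell to 0.475 (3.01 ± 0.425 to 1.43 ± 0.625 CPM) and Nwd1 to 0.556. The mitochondrial ribosomal RNA mt-Rnr1 was at 0.627, and at -0.58 on the log2 scale without uninjured joint 1; the libraries had been selected for poly(A). Gdpd2, Bdh1, Oip5 and Kbtbd6 had folds of 0.652 to 0.663 and lost the call in 1 or more fits that left out a single library, because they then lay under the 1.5-fold limit. Without injured joint 3 the log2 values were -0.52 for Gdpd2 and -0.51 for Kbtbd6, and without uninjured joint 4 Bdh1 was at -0.56.

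**Figure D4:**
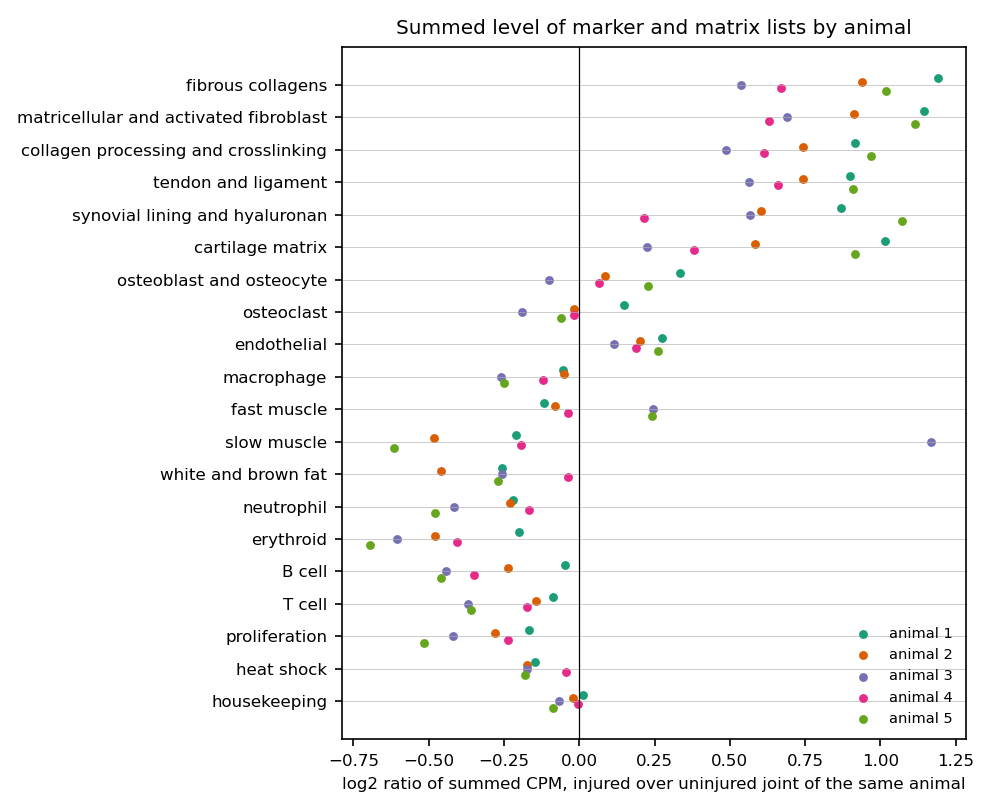
Log2 ratio of the summed CPM of matrix and marker lists, injured over uninjured joint of the same animal (horizontal axis), for each list (rows) and each of the 5 STR/ort animals at 2-weeks (coloured points). The collagen sums are above 0 in all 5 animals, the neutrophil and erythroid sums are below 0 in all 5, and the fast muscle sum lies on both sides (2 of 5 animals above 0).

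Markers of other cells in the joint were measured beside these changes. The 18 macrophage genes had a median log2 fold change of 0.11, and 4 of them were lower at an unadjusted p under 0.05. At both limits 5 were higher and 0 lower, or 4 higher without both joints of animal 5. The higher genes included Msr1 (1.99-fold), Trem2 (1.87-fold), Cd14 (1.64-fold) and Gpnmb (1.61-fold, or log2 0.47 with an adjusted p of 0.0577 without injured joint 1). The summed macrophage level was, in contrast, lower in the injured joint of all 5 animals, at 1612.3 to 2181.1 CPM against 1670.2 to 2371.8 CPM. None of these macrophage genes was at 0 in all libraries, and the part of macrophages in the result was not tested.

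Blood cell lists and proliferation genes were lower in injured joints, mostly by less than 1.5-fold. All 5 animals had lower sums in the injured joint for erythroid genes (1198.2 to 1995.2 CPM against 1587.4 to 2440.4 CPM, mean log2 difference -0.48, SD 0.19), neutrophil genes (11543.5 to 16795.3 against 13522.2 to 19735.9 CPM, -0.30, SD 0.14) and proliferation genes (2282.0 to 2914.4 against 2771.5 to 3879.4 CPM, -0.32, SD 0.14). With 5 animals the two-sided exact sign-flip test cannot go below 0.0625, which is the p of each of these sums. Of their 10, 15 and 30 genes, 0 were called in edgeR's test, although 9, 12 and 27 were lower at an unadjusted p under 0.05 and 6, 2 and 14 at an adjusted p under 0.05, and DESeq2 called 1, 0 and 0. Klf1, the erythroid transcription factor, was at 33.5 ± 5.90 against 50 ± 10.2 CPM (fold 0.673, adjusted p = 0.00573) and passed the fold limit without injured joint 1 (-0.67) or 5 (-0.60) and without uninjured joint 2 (-0.63) or 4 (-0.64). Aurka and Bub1, mitotic kinases, stood at folds of 0.75 and 0.728. T cell and B cell sums were lower in all 5 animals as well (42.5 to 58.4 against 47.2 to 71.4 CPM and 171.5 to 334.7 against 185.8 to 460.4 CPM), with 0 of 12 genes called in each by edgeR or DESeq2 and 2 in each at an unadjusted p under 0.05. No gene in these lists was at 0 in all 10 libraries, the part of blood cells in the other results was not tested, and neither was the cell type in which the proliferation genes were lower.

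No gene of muscle fibres was called at this time. Of 15 fast and 10 slow muscle genes, 1 and 0 had an unadjusted p under 0.05 and DESeq2 called 0, and the fast sum was 83035.8 to 117724.6 CPM in injured and 70238.5 to 117119.6 CPM in uninjured joints (mean log2 difference 0.05, SD 0.18, exact p = 0.50). The slow sum was highest in injured joint 3 (2584.8 CPM), where the slow light chain Myl3 was at 197.2 CPM against 47.7 to 87.6 CPM in the other injured joints. Of 25 glycolytic and oxidative metabolism genes, edgeR called 0 (3 at an unadjusted p under 0.05) and DESeq2 1, with a median of -0.22. Runx1 (1.52-fold) and Tmem8c, the myoblast fusion protein myomaker (5.63-fold from means of 0.211 and 1.15 CPM), were the 2 higher of 23 muscle regeneration and denervation genes, and Trim63 was the 1 lower. The higher share of 8.70% is near the 4.34% of all genes in a list of this size, and the count was 1 by DESeq2 or without animal 5, 3 without animal 4 and 1 to 3 as single libraries were left out. Runx1 was under the limit without injured joint 4 (0.58), injured joint 5 (0.55) or uninjured joint 1 (0.56), and Tmem8c, at a log2 of 2.49, lost its call without injured joint 1 (log2 1.89, adjusted p = 0.07) and was at 3.48 without uninjured joint 1. Fat markers held 0 genes of 13 called by edgeR (7 at an unadjusted p under 0.05), 2 with the animal as a block and 1 by DESeq2, and summed to 511.0 to 615.5 CPM in injured and 616.7 to 763.1 CPM in uninjured joints, lower in all 5 animals; Pck1 had an adjusted p of 0.0549, and of 0.0405 with the animal as a block, and passed without injured joint 4 (-1.22) or uninjured joint 5 (-1.05). Of 10 mast cell genes 0 were called by edgeR or DESeq2, and 1 had an unadjusted p under 0.05. Their sum was lower in the injured joint of all 5 animals, at 106.7 to 144.3 against 124.7 to 161.4 CPM (mean log2 difference -0.21, SD 0.09). Of 4 skin genes, Sbsn, a keratinocyte protein, was higher (2.23-fold), and the skin sum was 24.7 to 28.2 CPM against 15.2 to 18.9 CPM, without overlap; the part of skin in the result was not tested.

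Of 15 immediate early genes, 2 were higher (13.3%, against 4.34% of all genes), Ier3 (1.59-fold) and the AP-1 subunit Fosl1, and with the animal as a block, by DESeq2 or without animal 4 or 5 the count was 1. Fosl1 was at 0.401 ± 0.196 against 0.0885 ± 0.152 CPM (adjusted p = 0.0345; 0.0896 with the block), with 0 in 3 uninjured joints, and its call was lost in every fit without a single library except that without injured joint 2 or uninjured joint 1. Without uninjured joint 1 its log2 fold change went from 2.14 to 3.51. Jund, another AP-1 subunit, rose within the fold limit (1.40-fold, adjusted p = 4.50e-06). Of 10 heat shock genes, 1 was lower (2 with the block or by DESeq2), Hspa1b (log2 -0.81, adjusted p = 0.0361). That call was lost without injured joint 2 (adjusted p = 0.07), 4 (0.09) or 5 (0.0849) and without uninjured joint 5 (0.276). None of the 25 housekeeping genes was called by edgeR or DESeq2 (2 had an unadjusted p under 0.05), and their sum differed by -0.03 (SD 0.04) on the log2 scale.

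Whether the injury response of STR/ort differed from that of the other strains at 2-weeks was tested directly, as the difference of the injured to uninjured changes. In C57BL/6, 499 genes were higher and 12 lower (2.88% and 0.0693% of genes), and in MRL/MpJ 198 were higher and 3 lower (1.14% and 0.0173%). Of the 752 genes higher in STR/ort, 384 (51.1%) were also higher in C57BL/6, where they were 77% of that strain's higher genes, and 178 (23.7%) were higher in MRL/MpJ, where they were 89.9%. None was called in the opposite direction. The median log2 fold change of the 752 was 0.92 in STR/ort, from which they were chosen, 0.67 in C57BL/6 and 0.41 in MRL/MpJ. In all 3 strains 172 genes were higher.

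**Figure D5:**
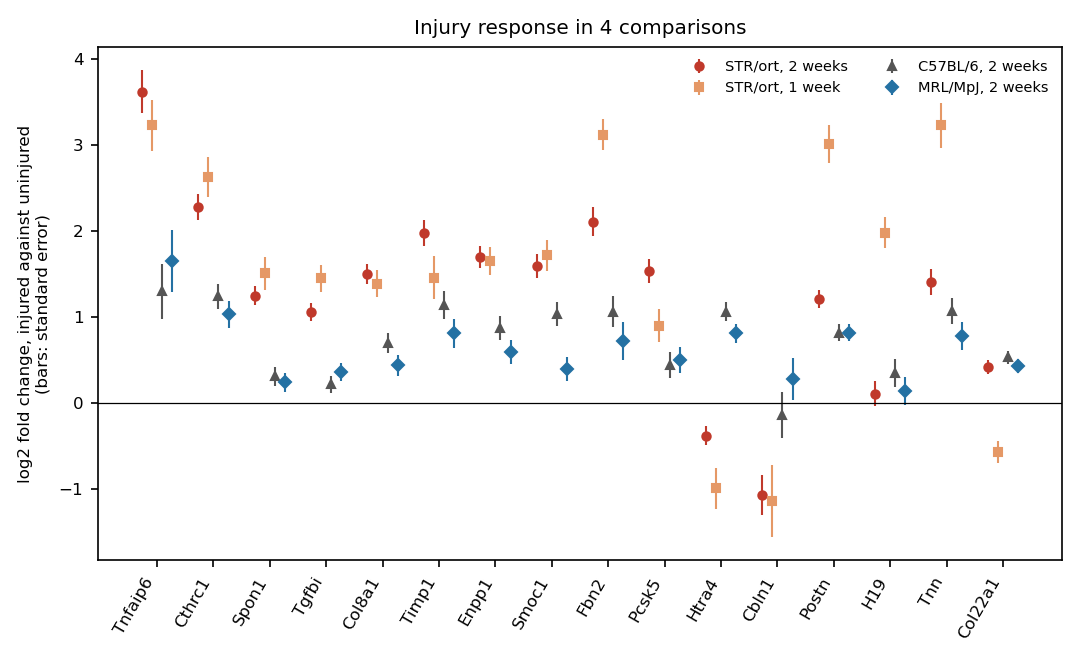
Log2 fold change of injured against uninjured joints with its SE (vertical axis, bars the SE) in STR/ort at 2-weeks, C57BL/6 at 2-weeks, MRL/MpJ at 2-weeks and STR/ort at 1-week, for 16 genes (horizontal axis) whose response differed in at least 1 of the tests of the difference. Tnfaip6 lies at 3.62 in STR/ort against 1.3 in C57BL/6 and 1.65 in MRL/MpJ, and Htra4 lies below 0 in STR/ort and above 0 in the other strains.

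The response differed between STR/ort and C57BL/6 for 8 genes (0.0462%), 6 with the larger value in STR/ort and 2 with the smaller, and for 17 with the animal as a block. The count ranged from 5 to 21 as single libraries were left out, the lowest without C57BL/6 injured joint 3 or uninjured joint 5 and the highest without STR/ort injured joint 3, and it was 4 without TMM scaling, 31 with DESeq2 and 33 with the likelihood ratio test. At an unadjusted p under 0.05 there were 895 of the 17310 genes, near the share of 0.05 that this limit passes when no gene differs. The largest difference was in Tnfaip6: log2 3.62 in STR/ort and 1.3 ± 0.32 SE in C57BL/6, a difference of 2.32 ± 0.43 SE (adjusted p = 0.0201). Its level was 4.58 to 9.26 CPM in injured and 2.11 to 3.69 CPM in uninjured C57BL/6 joints, so that all injured STR/ort joints, at 36.3 CPM or more, were above all injured C57BL/6 joints. Spon1, a matrix protein also known as F-spondin, was at 48.0, 44.8, 36.1, 40.5 and 52.9 CPM in injured STR/ort joints and at 15.8 to 22.3 CPM in uninjured ones, a log2 rise of 1.25, against 0.31 in C57BL/6 (difference 0.93, adjusted p = 0.0102). Tgfbi (difference 0.84), Arl4c, a small GTPase (0.89), Plekhg4 (1.15) and the proprotein convertase Pcsk5 (1.09) also rose more in STR/ort. The differences in Spon1, Tgfbi and Arl4c held in all 20 fits that left out a library, whereas that in Tnfaip6 lost its call in 4 of them (C57BL/6 injured joint 3, C57BL/6 uninjured joints 3 and 5, and STR/ort uninjured joint 5), that in Pcsk5 in 5 and that in Plekhg4 in 8. In a fit of only the groups compared Spon1, Arl4c, Plekhg4 and Pcsk5 lost the call, as did Arl4c, Plekhg4, Pcsk5 and Ccdc3 without TMM scaling.

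Htra4, a secreted serine protease, went in opposite directions. In STR/ort it was at 26.2, 25.1, 20.8, 26.4 and 26.2 CPM in injured joints and at 29.0, 34.6, 29.7, 38.1 and 30.5 CPM in uninjured joints, log2 -0.38 and lower in all 5 animals. In C57BL/6 it rose from a range of 15 to 26.1 CPM to 35.9 to 43.9 CPM (log2 1.06 ± 0.11 SE), and in MRL/MpJ from 13.7 to 19.8 CPM to 25.3 to 32.7 CPM (0.81 ± 0.11 SE). The difference was -1.43 ± 0.16 SE against C57BL/6 (adjusted p = 6.40e-06) and -1.19 ± 0.16 SE against MRL/MpJ (adjusted p = 0.000394). Ccdc3, a secreted protein of fat and vessels, rose in C57BL/6 (0.63) and was at -0.11 in STR/ort (difference -0.74, adjusted p = 0.0102).

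Against MRL/MpJ the response differed for 78 genes (0.451%), 75 of them with the larger value in STR/ort, and for 79 with the block, 63 of them shared. The count ranged from 21 to 150 as single libraries were left out, the extremes without MRL/MpJ uninjured joint 1 and MRL/MpJ injured joint 4. Cthrc1 rose by 2.28 in STR/ort and by 1.03 ± 0.16 SE in MRL/MpJ (difference 1.25 ± 0.22 SE, adjusted p = 0.00501). MRL/MpJ injured joints held 15.3 to 27.7 CPM of it, within or close to the range of the uninjured STR/ort joints. Other genes with a larger response in STR/ort were Kcnj15 (difference 1.75), Spon1 (1.01), Col8a1 (1.06), Smoc1 (1.19), Enpp1 (1.11), Spsb1 (0.96), Timp1 (1.17) and Tnfaip6 (1.97, adjusted p = 0.0468). Of the 14 fibrous collagens 3 differed, of the 41 Wnt genes 3 and of the 27 matricellular genes 4. Serpina1b rose in MRL/MpJ (1.14) and was at -0.39 in STR/ort (difference -1.52, adjusted p = 0.0181), and Cbln1 differed by -1.36 (adjusted p = 0.0468; 0.0766 with the block). Of the 20 fits without a library, Tnfaip6 lost the call in 16, Cbln1 in 17 and Timp1 in 1 (MRL/MpJ uninjured joint 1), and the other genes named here in 0.

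At 1-week after injury STR/ort joints had 959 higher and 563 lower genes (5.54% and 3.25%). Of the 752 genes higher at 2-weeks, 515 (68.5%) were higher at 1-week, where they were 53.7% of the higher genes, and of the 55 lower genes 14 were lower at 1-week. The labels give 1-week and 2-weeks different batches, so that time and batch cannot be told apart between the levels. Each injured to uninjured difference, however, lies within a batch. The response differed between the times for 22 genes (0.127%), 9 with the larger value at 2-weeks and 13 with the smaller. With the replicate number as a block the count was 210 (131 larger and 79 smaller at 2-weeks), the 22 included, and it ranged from 5 to 75 as single libraries were left out.

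Several matrix and growth genes responded less at 2-weeks than at 1-week. Postn rose by 1.21 at 2-weeks and by 3.01 ± 0.22 SE at 1-week, when injured joints held 4075.6 to 8378.7 CPM against 434.3 to 918.6 CPM in uninjured joints (difference -1.82 ± 0.28 SE, adjusted p = 0.0114). Tnn, tenascin N, rose by 1.41 and 3.23 (difference -1.84), Ptn, the growth factor pleiotrophin, by 0.65 and 2.31 (-1.67), and Mest, an imprinted gene of growing tissue, by 1.11 and 2.56 (-1.46). At 2-weeks Ptn was within the call by a small margin, with log2 values of 0.57 without injured joint 1, 0.58 without uninjured joint 4 and 0.57 without uninjured joint 5. H19, an imprinted noncoding RNA, was at 624.3 ± 69.2 and 581.8 ± 72.1 CPM at 2-weeks (log2 0.11, adjusted p = 0.725) and rose by 1.98 at 1-week (difference -1.88, adjusted p = 0.0014). Ereg, epiregulin, was at 0.23 and 2.64 (difference -2.43, adjusted p = 0.0308). The differences in Postn, Ptn and H19 held in all 19 fits without a library, while Tnn and Ereg lost the call in 6 and Mest in 7.

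Of the genes with the larger response at 2-weeks, some were lower at 1-week and near 0 at 2-weeks. Pcsk6, a proprotein convertase that activates aggrecanases, was at -0.10 at 2-weeks and fell by 1.08 at 1-week (difference 0.97 ± 0.15 SE, adjusted p = 0.0118). Vit, vitrin (-0.03 at 2-weeks and -0.87 at 1-week), and Cpe, carboxypeptidase E (-0.01 and -0.64), followed this pattern. Smpd3, a sphingomyelinase of bone and cartilage, was at 0.30 at 2-weeks (adjusted p = 0.14) and -0.82 at 1-week. Col22a1 of tissue junctions was above 0 at 2-weeks (0.42, adjusted p = 0.000537) and below 0 at 1-week (-0.57). The kinase Prkg2 of the growth plate was at 0.58 at 2-weeks (adjusted p = 0.000642) and near 0 at 1-week (-0.07, difference 0.64). All injured joints at 2-weeks lay above all uninjured ones for Prkg2 (18.2 to 21.5 against 10.9 to 14.6 CPM) and for Col22a1 (183.2 to 218.4 against 134.4 to 179.8 CPM), each under the 1.5-fold limit. Prkg2 passed that limit without injured joint 2 or 3 (0.60 each), without uninjured joint 1 (0.60), 4 (0.59) or 5 (0.62), without animal 5 (0.61), with housekeeping scaling (0.61) and with 1 RUVg factor (0.59). Pcsk6 kept its call in all 19 fits without a library and Prkg2 lost it in 1 (2-weeks uninjured joint 2), against 8 for Smpd3 and for Vit, 12 for Cpe and 13 for Col22a1. By list, 8 of 17 osteoblast and osteocyte genes and 10 of 15 fast muscle genes were lower at 1-week, against 1 and 0 at 2-weeks, while the test of the difference called 1 and 0 of them.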

How the data were processed

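RNA-seq was performed on whole knee joints (total RNA, TruSeq poly(A) libraries). Per the labels and the methods of the study, the authors aligned the reads to mm10 with TopHat2 version 2.0.11, counted reads per RefSeq gene with featureCounts, kept genes with at least 2 counts in at least 5 libraries, and normalised and tested with RUVSeq and edgeR; the number of factors and the edgeR test are not given in the sources used here. The values used are the deposited counts per gene, not normalized. Of 17313 genes listed, 3 repeated rows were dropped and 17310 tested, and 24 genes whose symbols had turned into dates were kept unnamed.

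Counts of the 30 libraries of 2-weeks (6 groups of 5, totals of 8384536 to 14998354) were fitted with edgeR 4.0.16 in R 4.3.3 (TMM scaling, quasi-likelihood test, a mean per strain and joint, Benjamini-Hochberg adjustment over all genes). Genes with an adjusted p under 0.05 and a fold change over 1.5 were called. The STR/ort libraries of 2-weeks enter every test of a difference between responses, so that these share them, and 1-week against 2-weeks was fitted on the 19 STR/ort libraries of both times. Levels are TMM-scaled CPM. Gene lists are described by counts and medians, list sums by an exact sign-flip test within animals. Members and lists were chosen with earlier results of these data known. Named are the 12 called genes of each direction that ranked first by adjusted p, up to 6 members of each list by adjusted p, up to 8 genes with the largest change in each direction at a mean of at least 1 CPM, and up to 6 genes in each direction for each test of a difference; some of these are given only as counts. The genes of the tissue check are extra. In simulated counts, 43.3% of genes changed by 1.5-fold, 94% by 2-fold and 100% by 4-fold were called in the STR/ort comparison at 2-weeks (83.6% of the first had an adjusted p under 0.05). Only genes with a mean of at least 1 CPM were changed, and all joints were drawn independently. The shares thus do not cover genes under 1 CPM or the pairing of joints.

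The labels give both joints of an animal the same number at 2-weeks. Deviations from the group means of same-numbered STR/ort joints correlated by 0.384, 0.466, 0.222, 0.437 and 0.33 over 14280 genes, each joint best with its own number. Of 20 pairs of libraries within a group, 0 held identical counts. Alternatives were other scalings (RLE, no TMM, 25 housekeeping genes, RUVg), DESeq2 1.42.0, the edgeR likelihood ratio test, filterByExpr, fits of only the groups compared, the replicate block and leaving out single libraries. Leaving out both joints of animal 4 or 5 was added after seeing the data. Promoter windows are those of RefSeq on GRCm38.p6, the assembly that mm10 represents, and matched 12794 of the tested genes by symbol. Sex-linked genes are not reported here.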

Additional observations from a re-analysis of the deposited data

Results flagged for a closer look

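In the groups of 5 STR/ort joints at 2-weeks, 33 of 440 sets of values held a joint far from its nearest neighbour relative to the range of the group; chance gives about 1 in 20 such sets. Uninjured joint 4 was the high value for Thbs2 (130.6 CPM), Mmp19 (19.7 CPM), Mmp3 (26.5 CPM), Col5a1 (431 CPM), Bgn (520.2 CPM), Sox5 (14.1 CPM), C3ar1 (14.9 CPM) and the summed ADAM and ADAMTS proteases (1001.5 CPM). It was the low value for Hsph1 (105.8 CPM) and the summed heat shock genes (2301.3 CPM). Injured joint 5 was the high value for Tnfaip6 (90.5 CPM), Cytl1 (30.3 CPM), Inhba (54.2 CPM), Il33 (27.5 CPM), Cxcl1 (3.44 CPM) and Has2 (16 CPM). Injured joint 3 was high for Bdh1 (30.4 CPM), the slow muscle gene Myl3 (197.2 CPM) and the summed slow muscle genes (2584.8 CPM), and low for Ctsk (234.4 CPM), Htra4 (20.8 CPM) and the summed matricellular genes (12785.3 CPM).

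The other values apart from their group were spread over the joints. In animal 1 they were the uninjured levels of Tnfaip6 (7.16 CPM), Megf6 (3.87 CPM, low), Tmem8c (0.704 CPM) and Fosl1 (0.352 CPM) and the injured levels of Tmem8c (2.77 CPM) and Adipoq (44 CPM). In animal 2 they were the injured levels of Oip5 (3.77 CPM, low) and of the summed housekeeping genes (10660 CPM, low) and the uninjured levels of Serpina1b (4.42 CPM) and of the summed neutrophil genes (13522.2 CPM, low). In animal 5 it was the uninjured level of Col18a1 (45.1 CPM, low).

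The injury response of STR/ort differed from that of C57BL/6 at 2-weeks, by the test of the difference, in Tnfaip6 (2.32 on the log2 scale), Plekhg4 (1.15), Pcsk5 (1.09), Spon1 (0.93), Arl4c (0.89) and Tgfbi (0.84), with the larger response in STR/ort, and in Htra4 (-1.43) and Ccdc3 (-0.74), with the smaller.

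Against MRL/MpJ the named genes with the larger log2 response in STR/ort were, among matrix and fibroblast genes, Cthrc1 (1.25), Thbs2 (0.77), Megf6 (1.23), Col8a1 (1.06), Col5a2 (0.72), Lox (0.91), Fbn2 (1.39), Tgfbi (0.7), Pxdn (0.87), Spon1 (1.01), Smoc1 (1.19) and Scx (0.94). Among proteases and inhibitors they were Mmp19 (0.98), Mmp14 (0.61), Timp1 (1.17) and Pcsk5 (1.04). Among signalling genes they were Tnfaip6 (1.97), Sfrp1 (1.06), Fzd1 (0.79), Ror2 (1.01), Inhba (1.03), Igfbp4 (0.68), Igfbp3 (0.74) and Angptl4 (1.28). The others were Enpp1 (1.11), Kcnj15 (1.75), Spsb1 (0.96), Arl4c (0.82), Plekhg4 (1.11), Gpx7 (0.67) and Mest (0.83). Of the genes in this paragraph not given with the results, Gpx7 lost the call in 16 of 20 fits without a library, Igfbp3 and Scx in 13, Fzd1 and Mest in 9, Col5a2 in 8, Megf6 and Sfrp1 in 7, Mmp14 in 6, Plekhg4 in 3, Igfbp4 in 2 and Mmp19, Lox, Fbn2, Ror2, Pcsk5 and Tgfbi in 1. With the animal as a block Col5a2 (adjusted p = 0.0659, edgeR) and Ror2 (0.0677) no longer passed. The smaller response in STR/ort was found in Htra4 (-1.19), Cbln1 (-1.36) and Serpina1b (-1.52).

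Between the times in STR/ort, the response at 2-weeks was smaller than at 1-week in Ereg (-2.43), H19 (-1.88), Tnn (-1.84), Postn (-1.82), Ptn (-1.67) and Mest (-1.46), and larger in Smpd3 (1.11), Col22a1 (0.97), Pcsk6 (0.97), Vit (0.83), Prkg2 (0.64) and Cpe (0.62). The times are also different batches.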

How the results depend on the processing

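Over single libraries left out, the count of called genes lay between 715 and 886 for STR/ort at 2-weeks, 404 and 591 for C57BL/6, 156 and 260 for MRL/MpJ and 1140 and 1763 for STR/ort at 1-week, and no scaling, tool or filter moved these 4 counts by over 1.5 times. The tests of a difference depended more on the processing, and the cause was not tested. For STR/ort against C57BL/6 (8 genes) the count was 4 without TMM or with only the groups compared, 13 with 1 RUVg factor, 31 with DESeq2, 33 with the likelihood ratio test and 17 with the replicate block, and 5 to 21 over libraries left out: 5 without C57BL/6 injured joint 3 or uninjured joint 5, and 21 without STR/ort injured joint 3. For STR/ort against MRL/MpJ (78 genes) it was 49 with RLE, 20 without TMM, 131 with 2 RUVg factors, 37 with filterByExpr and 36 with only the groups compared, and 21 to 150 over libraries left out. Beyond 1.5 times lay MRL/MpJ injured joints 3 (43) and 4 (150), MRL/MpJ uninjured joints 1 (21), 4 and 5 (48 each), STR/ort injured joints 1 (46), 3 (122) and 5 (39), and STR/ort uninjured joints 1 (51), 3 (46) and 5 (40). For 2-weeks against 1-week (22 genes) it was 12 with housekeeping scaling, 52 and 48 with 1 and 2 RUVg factors, 92 with DESeq2, 103 with the likelihood ratio test and 210 with the replicate block, and 5 to 75 over libraries left out. Here 14 of 19 libraries moved it by over 1.5 times: at 1-week injured joints 1 (14), 2 (6) and 5 (45) and uninjured joints 1 (8), 2 (7) and 3 (75), and at 2-weeks injured joints 1 (12), 3 (6), 4 (12) and 5 (6) and uninjured joints 1 (6), 2 (5), 3 (5) and 5 (12). Of the genes called there 40.9% had the larger value at 2-weeks, against 62.4% with the block, 28.8% and 25% with 1 and 2 RUVg factors, 54.3% with DESeq2 and 58.3% with the likelihood ratio test. At 1-week the replicate numbers carry no animal name, so that the block rests on shared numbers there. Of the 178 named genes, the block added Pck1 and lost Sost and Fosl1 within STR/ort at 2-weeks. It added Thbs2 (adjusted p = 0.0302), Col8a1 (0.0243) and Angptl7 (0.0197) and lost 0 against C57BL/6, and it added Cytl1 (0.0115), Angptl7 (0.00864), Col5a3 (0.0293) and Mt1 (0.0213) and lost Cbln1, Col5a2 and Ror2 against MRL/MpJ. Between the times it added 13 and lost 0: Has1 (0.000776), Col2a1, Comp, Bglap, Hapln1 and Ccdc3 with the larger value at 2-weeks, and Ogn, Ptgs2, Thbs2, Fbn2, Angptl2, Scx and C1qtnf3 (0.0294) with the smaller. The fit with only the groups compared is the one reported for 2-weeks against 1-week. Among the genes called between the times, the majority thus turned from the smaller to the larger value at 2-weeks with the block, DESeq2 and the likelihood ratio test. No called value of a named gene changed sign, whereas the values of Vit, Cpe and Bglap within STR/ort at 2-weeks, not called, did under 1 or more alternatives. At 8778124 to 13104419 counts per library, Fosl1, with a mean under 1 CPM in both groups, rests on few reads.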
